A study of Rattus norvegicus with 6 samples.

Results

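The cytoplasmic ribosomal protein genes encode the protein parts of the small subunit (Rps genes) and the large subunit (Rpl genes) of the ribosome. They were the transcript clusters with 1 gene symbol in the platform annotation, where that symbol is Rpl or Rps followed by a number, with or without a or x, or is Rplp0, Rplp1, Rplp2 or Rpsa. This rule found 249 of the 29214 clusters on the array, which belong to 68 of the 14506 genes named by a 1-symbol cluster, 42 of the large and 26 of the small subunit. Each gene was represented by the brightest of its clusters, judged by the mean of the 6 arrays, and the choice used no difference between treatments.

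Primary motor neurons of rat embryos at embryonic day 13.5 were cultured for 2 days and then kept for 2 h with 1 microM camptothecin (3 arrays) or with an equal volume of DMSO, its solvent (3 arrays). No genotype or strain is given in the labels. Camptothecin traps topoisomerase I on DNA, which blocks replication forks and elongating RNA polymerases. The question is which transcripts differ after this short exposure. The samples of a group are labelled as biological replicates, but nothing says whether they came from separate embryos or platings, so a p-value here reflects only how far these samples differ among themselves, which may be technical.

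The ribosome joins ribosomal RNA, made mostly by RNA polymerase I, with many proteins that are made in the cytoplasm and imported into the nucleolus for assembly. The genes of these proteins are short, give some of the most abundant and long-lived mRNAs of a cell, and their mRNAs begin with a run of pyrimidines (the TOP motif) through which mTOR and Larp1 control their translation. Several ribosomal proteins, Rpl5 and Rpl11 above all, bind and inhibit the p53 ubiquitin ligase Mdm2 when they are not built into ribosomes. In neurons, ribosomal proteins are made for the cell body, and their mRNAs are also found in axons.

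The sequence around the annotated gene start is shown for the 3 members with the largest change and the 2 with the smallest. Both kinds carry a run of C and T near that start. Each runs from 50 bases before to 25 bases after the start in RefSeq's assembly GRCr8, 5′ to 3′ on the gene's strand, and capitals mark the longest run of C and T within 25 bases of the start.
Rplp1: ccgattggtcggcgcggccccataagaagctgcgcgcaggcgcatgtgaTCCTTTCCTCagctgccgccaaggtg
Rpl36: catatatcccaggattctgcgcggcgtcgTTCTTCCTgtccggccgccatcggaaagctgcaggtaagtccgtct
Rps15: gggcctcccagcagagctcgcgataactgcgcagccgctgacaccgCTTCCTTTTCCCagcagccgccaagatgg
Rpl10: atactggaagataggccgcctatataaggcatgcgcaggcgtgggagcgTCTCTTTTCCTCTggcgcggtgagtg
Rpl5: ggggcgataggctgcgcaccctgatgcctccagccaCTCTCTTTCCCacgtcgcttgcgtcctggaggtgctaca

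These windows lie at chr8:71290848-71290922 on the minus strand (Rplp1), chr9:1533730-1533804 on the plus strand (Rpl36), chr7:10068091-10068165 on the minus strand (Rps15), chrX:157205800-157205874 on the plus strand (Rpl10) and chr14:1995201-1995275 on the minus strand (Rpl5). The runs were 10, 8 and 12 bases long in Rplp1, Rpl36 and Rps15, which changed most, and 13 and 11 bases long in Rpl10 and Rpl5, which changed least. Relative to the annotated start they began at -1 in Rplp1, -21 in Rpl36, -4 in Rps15, -1 in Rpl10 and -14 in Rpl5. Those of Rpl36 and Rpl5 ended before that start, so they are not the first bases of the annotated mRNA.

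Of the 68 members, 56 had an entry in the RefSeq promoter table, which covers 250 bases before to 50 after each gene start. A run of 8 or more pyrimidines within 25 bases of the start stood in 47 of the 56 (83.9%), against 19.3% of all 27457 promoters of that length in the table. The letters CTTTCC, searched in the same window on the gene's strand and able to lie inside such a run, stood in 18 members (32.1%) and in 2.27% of all promoters. In the whole 300-base window and on both strands, CCGGAA, the core bound by ETS factors, stood in 53.6% of the members and 15.8% of all promoters, and GGGCGG, the core bound by Sp1, in 57.1% and 34.9%. AAGATGGC, the core bound by YY1, stood in 8.93% and 3.44%, CACGTG, an E-box, in 8.93% and 6.65%, and TATAAA, the TATA box, in 10.7% and 14.3%. Over the 11894 other array genes in the table the shares were 17.8% for the pyrimidine run, 2.24% for CTTTCC, 21.0% for CCGGAA, 50.1% for GGGCGG, 4.21% for AAGATGGC, 7.88% for CACGTG and 11.8% for TATAAA, so for GGGCGG the members lay closer to these genes than to all promoters. These matches describe letters and show no binding. The median log2 change was 0.27 in members with a pyrimidine run of that length and 0.17 in the members without, and 0.29 with CTTTCC and 0.24 without, with no test. A C or T run at the start itself stood in fewer members, 30 of 56 (53.6%), and in 6.23% of the other array genes. The median change was 0.27 with such a start run and 0.23 without.

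Values are deposited log2 expression values, and a change is the camptothecin mean minus the DMSO mean on that scale, with limma's standard error (SE). A gene rose or fell where limma's p-value, adjusted by the method of Benjamini and Hochberg over all 29214 clusters, was under 0.05. The median of an array was 6.31 to 6.33 in the camptothecin group and 6.22 to 6.28 in the DMSO group, and the number of arrays limits the precision. Because the arrays were scaled to each other, a change is relative to the other transcripts and does not measure mRNA per cell. In such bulk samples fewer cells of a type and less RNA per cell cannot be told apart.

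The culture was checked against marker lists. Over all genes 11.3% rose and 9.35% fell. An array median has as many clusters above it as below, so lying above it does not by itself show that a cell type is present. Of 15 measured motor neuron markers 8 lay above the highest DMSO array median, among them Nefm (10.57) and Nefl (10.24), while Isl1 (5.77), Isl2 (5.15), Slc18a3 (6.16) and Slc5a7 (6.21) did not. Nefh, Nefm and Prph rose and Foxp1 and Chodl fell, and the mean level of the 15 was 6.97 to 7.0 with DMSO and 6.94 to 7.07 with camptothecin. Of 12 progenitor and astroglial markers 11 lay above that median, with 1 rise and 1 fall. Markers of spinal interneurons and sensory neurons did so in 12 of 14 cases, and 6 of the 14 fell and 0 rose. The mean level of these 14 was 8.15 to 8.19 in the DMSO arrays and 7.85 to 7.94 in the camptothecin arrays. Of 9 cell cycle genes, all of them above that median, 3 rose and 0 fell, with mean levels of 8.56 to 8.59 and 8.66 to 8.80. The lowest DMSO mean was 5.99 in the list of interneurons and sensory neurons, below every DMSO array median, and 6.98 in the cell cycle list. Of 7 oligodendrocyte and Schwann cell markers 6 lay above the highest DMSO array median, and 1 fell and 0 rose. Of 11 fibroblast markers 6 did so, and 1 fell and 0 rose. Of 12 endothelial, blood and microglial markers 4 did so, and 1, Cd68, rose by 0.86 (SE 0.09) and 0 fell. Of 8 muscle markers 2 did so, and 1 rose and 0 fell. The part of these lists in the results on ribosomal proteins was not tested.

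Ribosomal protein genes were higher with camptothecin as a group, by small amounts. Of the 68, 34 rose, 0 fell and 34 did not pass the test, which is 50% of the members against 10.1% of all clusters (11.3% of all genes) that rose and 7.91% (9.35% of genes) that fell. At an unadjusted p under 0.05, limma gave 52 members higher and 0 lower. The share of all clusters at that looser threshold was not counted, so this count has no background here. The median change of the members was 0.23 (lower quartile 0.17, upper quartile 0.35), and that of all clusters 0.07. The sign was positive for 67 of 68 members, and none reached a 2-fold rise. All 3 camptothecin arrays lay above all 3 DMSO arrays for 64 members and below for 0, where 24.5% of all clusters lay wholly above and 13.0% wholly below. Among genes outside the group that were at least as bright as the members' lower quartile, 52.3% lay wholly above and 19.1% wholly below, and among those of them spanning under 10 kb 76.1% and 6.72%.

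How many members rose depended on the scale and on the number of arrays. With each array centred on its own median 16 rose (23.5%, against 5.57% of all clusters) and 0 fell, and the members' median change was 0.17. Leaving out 1 array gave 25 rises without camptothecin replicate 1, 19 without replicate 2 and 15 without replicate 3, and 11, 12 and 7 without DMSO replicate 1, 2 and 3, with 0 falls and a median of 0.22 to 0.26 in each. The share of all clusters that rose was 4.06% to 7.97% in these fits. With eBayes run with trend and robust settings 56 rose (82.4%, against 13.9% of all clusters).

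**Figure D1:**
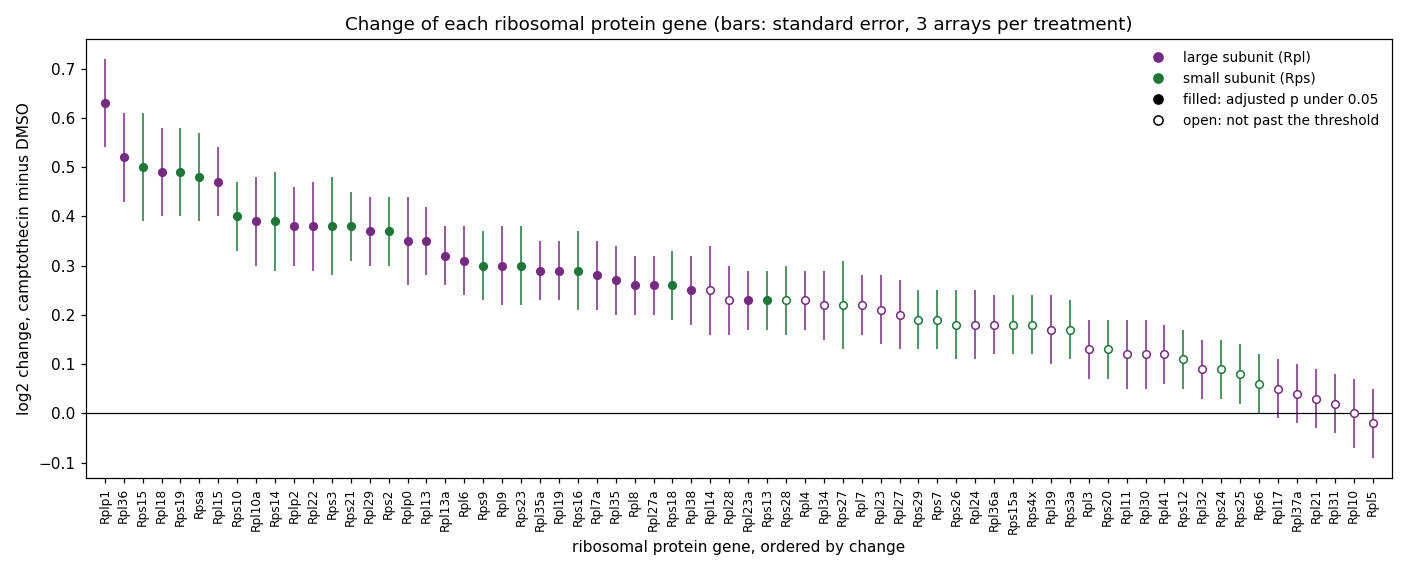
The plot gives the log2 change of each of the 68 ribosomal protein genes (vertical axis), ordered by size, with bars of 1 SE and 3 arrays per treatment. Filled points passed the test and open points did not. Changes run from 0.63 for Rplp1 to -0.02 for Rpl5, and genes of both subunits are spread over the whole order.

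The genes for the stalk of the large subunit rose in all 3 cases, where 34 of all 68 members rose. The stalk, built of Rplp0 and of Rplp1 and Rplp2 dimers, is where translation factors that use GTP bind the ribosome. Rplp1 had the largest change of all members, with 9.85, 10.06 and 9.80 in camptothecin replicates 1, 2 and 3 and 9.25, 9.29 and 9.28 in DMSO. The groups lay well apart, and camptothecin replicate 2 was the highest array. The rise was 1.55-fold (0.63, SE 0.09, n = 3 per treatment, limma adjusted p = 0.00391). Rplp2 had 11.46, 11.64 and 11.52 with camptothecin and 11.18, 11.20 and 11.09 with DMSO (0.38, SE 0.08, adjusted p = 0.0151). Rplp0, which anchors the stalk, had 10.69, 10.97 and 10.76 against 10.49, 10.42 and 10.46 (0.35, SE 0.09, adjusted p = 0.0338). Neither pair of groups overlapped. The call of Rplp1 held in all 16 alternatives run, that of Rplp2 in 14 and that of Rplp0 in 8.

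Other large subunit genes with large changes were Rpl36, Rpl18 and Rpl15. Rpl36 stood at 10.78, 11.03 and 10.89 in the camptothecin arrays and at 10.44, 10.43 and 10.28 in the DMSO arrays (0.52, SE 0.09, adjusted p = 0.00944). Rpl18 stood at 11.22, 11.52 and 11.41 and at 10.88, 10.96 and 10.84 (0.49, SE 0.09, adjusted p = 0.0139). Rpl15, one of the genes mutated in Diamond-Blackfan anaemia, an inherited failure of red cell production, stood at 10.06, 10.24 and 10.13 and at 9.72, 9.67 and 9.64 (0.47, SE 0.07, adjusted p = 0.00676). In each of these genes the lowest camptothecin array was above the highest DMSO array, and replicate 2 was again the highest.

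Small subunit genes moved by similar amounts. Their median change was 0.23, and 13 of 26 rose, while 21 of 42 large subunit genes rose with a median of 0.24. Rps15, whose tail reaches towards the decoding centre, had 9.25, 9.61 and 9.28 with camptothecin and 8.94, 8.93 and 8.77 with DMSO (0.50, SE 0.11, adjusted p = 0.0255). Rps19, the gene most often mutated in Diamond-Blackfan anaemia, had 10.64, 10.85 and 10.56 and 10.21, 10.24 and 10.13 (0.49, SE 0.09, adjusted p = 0.0128). Rpsa, a protein of the mRNA exit side that is also known as the laminin receptor precursor, had 11.15, 11.41 and 11.19 and 10.79, 10.83 and 10.67 (0.48, SE 0.09, adjusted p = 0.0138). The groups did not overlap in these genes. Rps10, at the mRNA entry side, had 10.78, 10.96 and 10.83 and 10.44, 10.48 and 10.46 (0.40, SE 0.07, adjusted p = 0.0114), the tightest of these by its DMSO arrays (SD 0.02).

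Of the proteins that line the mRNA entry and the decoding centre, the 4 members of the list rose. Besides Rps15 these are Rps2 (0.37, SE 0.07) and Rps3 (0.38, SE 0.10), which form the entry, and Rps23 (0.30, SE 0.08), which reaches into the decoding centre. Of the 16 alternatives, the call was lost in 2 for Rps2, 4 for Rps15, 9 for Rps3 and 10 for Rps23. In the tunnel through which the new chain leaves, Rpl4 (0.23, adjusted p = 0.0526) and Rpl17 (0.05), which narrow it, and Rpl39 (0.17), a small protein in its wall, did not pass the test, although all 3 had camptothecin arrays wholly above the DMSO arrays. Around the tunnel's rim 3 of 4 measured members rose, Rpl19 (0.29), Rpl35 (0.27) and Rpl23a (0.23), and Rpl31 (0.02) did not pass. These groups are small and were not compared by a test, and 34 of all 68 members rose. They also differed in mean level over all arrays. It ran from 9.13 to 11.17 for the entry and decoding centre, 11.58 to 12.36 for the tunnel and 11.27 to 12.67 for the rim. The part of level in these counts was not tested.

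Rpl5 and Rpl11, which bind Mdm2 together with a ribosomal RNA of the large subunit, did not pass the test. Rpl5 had 12.84, 12.97 and 12.85 with camptothecin and 12.92, 12.95 and 12.83 with DMSO, so the groups overlapped (-0.02, 95% interval -0.19 to 0.15). Rpl11 had 12.09, 12.18 and 12.10 and 12.02, 12.05 and 11.93 (0.12, interval -0.04 to 0.28), and its groups did not overlap.

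The other members with the smallest changes were Rpl10, Rpl31 and Rpl21. Rpl10, which completes the peptidyl transferase centre late in the making of the subunit, had 12.04, 11.97 and 12.05 and 11.97, 12.02 and 12.07, with no separation of the groups (0.00, interval -0.15 to 0.15). Rpl31 had 12.69, 12.69 and 12.67 and 12.66, 12.64 and 12.68 (0.02, interval -0.12 to 0.16). Rpl21 had 12.62, 12.63 and 12.61 and 12.60, 12.54 and 12.62 (0.03, interval -0.11 to 0.18). Rpl5, Rpl10, Rpl31 and Rpl21 were the only 4 members whose groups overlapped. With arrays centred on their medians, 61 of 68 changes were positive. Those of these 4 and of Rpl17, Rpl37a and Rps6 were at or below 0, and none of the 7 passed the test.

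Fewer disease genes and X-linked genes passed than among all members, a difference that was not tested. Their clusters were also brighter, with a median level over all arrays of 11.84 (Diamond-Blackfan) and 12.01 (X-linked), against 11.57 for all members. At a level of 12 or more only 1 of 16 members rose. The part of level in these counts was not tested. Of 12 measured members known from Diamond-Blackfan anaemia 4 rose and 0 fell, with a median of 0.20. Rps14, whose loss of 1 copy marks a form of myelodysplastic syndrome, rose by 0.39 (SE 0.10, adjusted p = 0.0401). Of the 4 X-linked members 0 rose. The X-linked Rps4x (0.18), Rpl36a (0.18), Rpl39 (0.17) and Rpl10 (0.00) all stayed above an adjusted p of 0.05. Rps6, the member that the kinases Rps6kb1 and Rps6kb2 phosphorylate, changed by 0.06 (SE 0.06), with an adjusted p of 0.547.

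The arrays of a treatment were alike in these genes apart from 1. Against each gene's DMSO mean, the median member lay 0.21 higher in camptothecin replicate 1, 0.30 in replicate 2 and 0.21 in replicate 3, and 67 of 68 members were above that mean in each of the 3. Each DMSO array, set against the mean of the other DMSO arrays, had a median of 0.01 in replicate 1 and of 0.00 in replicates 2 and 3. Replicate 2 of camptothecin held the highest of its group's values in 53 of the 68 members. Without that array the members' median change was 0.22.

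**Figure D2:**
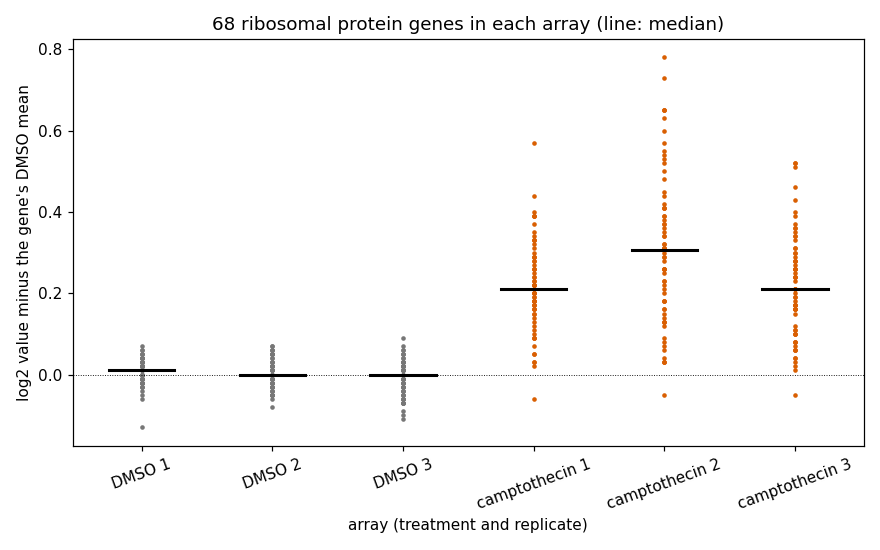
Each point is 1 of the 68 ribosomal protein genes in 1 array, drawn as its log2 value minus the gene's mean over the 3 DMSO arrays, and the line is the array's median. The camptothecin arrays have medians of 0.21, 0.30 and 0.21, and replicate 2 spreads highest.

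The size of the change went with the brightness of the cluster. A cluster's level is its mean over 6 arrays, which depends on its probes and is no measure of mRNA amount between genes. Across the 68 members Spearman's rho of level and change was -0.80 (-0.77 against the camptothecin mean and -0.82 against the DMSO mean). The members share arrays and depth of hybridisation and the change shares values with the level, so this is a description. Of 482 other genes at least as bright as the members' lower quartile (10.83) 12.4% rose and 5.6% fell. In these genes rho was -0.11, and it was 0.10 against the camptothecin mean and -0.33 against the DMSO mean. The members' levels ran from 7.27 to 12.89 and those of these genes from 10.83 to 12.94, so the rho values are not like for like.

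In classes of level, 4 of 5 members under 10 rose, with a median of 0.47, where 10.7% of 13294 other genes of that level rose (median 0.06). From 10 to 11, 12 of 14 rose (median 0.36), where 19.0% of 749 other genes of that level rose. From 11 to 12, 17 of 33 rose (median 0.23), where 12.4% of 322 other genes rose. At 12 or more, only Rpl35 of 16 members rose (median 0.12), and 2.99% of 67 other genes rose, with a median change of 0.03. Calls were few among the brightest members and among the brightest other genes, and the median SE was 0.06 in both. Whether the array's range limits the values at that brightness was not tested. Rps27 was the dimmest member (mean 7.27), the only one below the upper quartile of all clusters (7.85), and its change of 0.22 did not pass (adjusted p = 0.132).

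**Figure D3:**
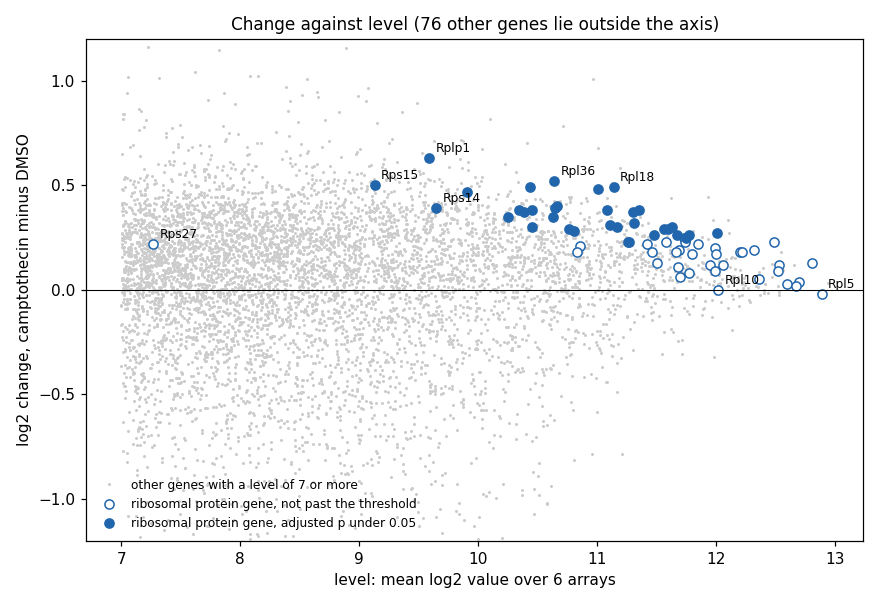
The plot sets each gene's log2 change (vertical axis) against its mean log2 value over 6 arrays (horizontal axis) for the ribosomal protein genes in blue and for other genes with a level of 7 or more in grey, of which 76 lie outside the axis. Changes run from 0.63 for Rplp1 at a level of 9.59 to a median of 0.12 and a highest value of 0.27 at levels of 12 or more, and Rps27 lies apart at 7.27.

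Most members are measured by more than 1 cluster with the same symbol. Ribosomal protein genes are known for their many processed pseudogenes, but which clusters lie in pseudogenes or share probe sequence was not tested. Some clusters of Rpl36, Rpl39, Rpl35a, Rpl9, Rps10 and Rps20 had identical means, changes and SEs. The counts of clusters therefore include repeated values, and the clusters of a gene are not taken as separate tests. Of the 53 members with more than 1 cluster, 0 had calls of both signs, and in 36 the dimmest cluster had a larger change than the brightest. Over all 249 clusters 126 rose and 0 fell, with a median of 0.26, against the 10.1% of all clusters that rose. For 3 of 26 members whose chosen cluster did not pass, another cluster with the same symbol did.

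In several of the larger families the clusters of 1 gene changed by similar amounts, and in others they did not. All 10 Rpl36 clusters rose, by 0.43 to 0.54, although their levels ran from 8.87 to 10.64. Some of these clusters had identical values. All 13 Rpl7a clusters rose, by 0.28 to 0.32, and all 9 Rps2 clusters by 0.37 to 0.41. None of the 21 Rpl21 clusters passed, with changes of 0.02 to 0.10 at levels of 11.63 to 12.60. Rpl31, with 7 clusters, had changes of 0.02 to 0.32 and 1 call, and its levels ran from 10.75 to 12.67. Among clusters at 12 or more, 2 of 63 rose, and from 10 to 11 it was 69 of 79.

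**Figure D4:**
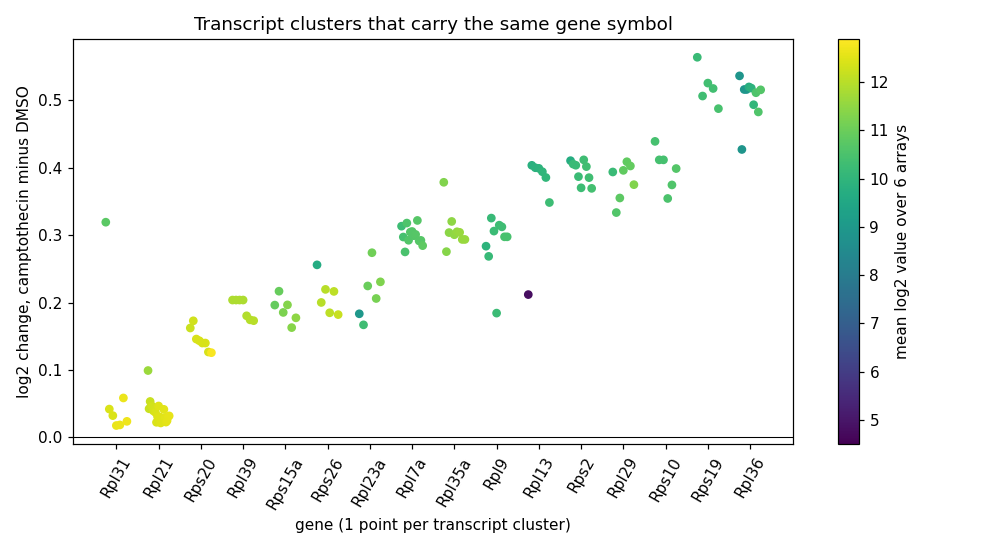
Each point is 1 transcript cluster of a ribosomal protein gene with 5 or more clusters, placed by its log2 change (vertical axis) and coloured by its mean log2 value over 6 arrays. The 21 clusters of Rpl21 lie between 0.02 and 0.10 and all 10 of Rpl36 between 0.43 and 0.54, while those of Rpl31 spread from 0.02 to 0.32 and those of Rpl13 from 0.21 to 0.40.

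The members are short genes, with a median span of 3.28 kb in GRCr8 against 18.0 kb for all genes, and 64 of 68 span under 10 kb. Of 4989 other genes under 10 kb 14.9% rose and 1.22% fell, with a median of 0.10. Of 134 other genes that are both under 10 kb and as bright as the members' lower quartile, 29.9% rose and 0.746% fell, with a median of 0.17. The members' share of 50% and their median of 0.23 lay above these values, which is a description and not a test. Among the members themselves Spearman's rho of span and change was 0.04. Nearly all of them are short, so this value cannot show how change goes with span over longer genes. Rpl29 (0.37, SE 0.07) has an annotated span of 893 kb, where the next largest is 16.2 kb for Rpl3. That annotation was not checked.

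Of the ribosomal protein genes outside the rule, Fau, Rpl22l1 and Rpl36al1 rose. Fau encodes a small subunit protein fused to a ubiquitin-like protein, and it rose 1.37-fold (0.46, SE 0.06, adjusted p = 0.00445). Rpl22l1, a paralog of Rpl22, had means of 8.15 with DMSO and 8.80 with camptothecin and rose 1.57-fold (0.65, SE 0.12, adjusted p = 0.0125), and Rpl22 itself rose 1.30-fold (0.38, SE 0.09). The difference between the paralogs was not tested. Rpl36al1 rose in both of its clusters, by 0.27 (adjusted p = 0.0293) and 0.53 (adjusted p = 0.0107), and its values were seen before it was named. The 7 clusters of Rpl37l1, all at 12.04 or brighter, changed by -0.01 to 0.06 and none passed. Rps27a and Rps27l were not measured by a cluster with 1 symbol.

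Translation factors and other genes of TOP-type mRNAs were higher in part. Of 16 measured, 5 rose and 0 fell, where 11.3% of all genes rose and 9.35% fell. Rack1, a scaffold on the head of the small subunit, rose by 0.43 (SE 0.08), Eef1b2, a subunit of the exchange factor for elongation factor Eef1a, by 0.35 (SE 0.07), Eif3k, an initiation factor subunit, by 0.33 (SE 0.07), and Btf3, which binds new chains at the ribosome, by 0.28 (SE 0.07). The list's median was 0.14, and its very bright members Eef1a1 (0.03) and Npm1 (0.02) did not pass.

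Genes for assembling ribosomes went both ways, with 6 of 28 rising and 4 falling and a median of 0.14. Over all genes 11.3% rose and 9.35% fell. Nmd3, the adaptor that exports the large subunit from the nucleus, fell by 0.89 (SE 0.08, adjusted p = 0.000597). Nop58, a core protein of the box C/D particles that guide methylation of ribosomal RNA, fell by 0.70 (SE 0.08), and Ltv1, needed to finish the small subunit, fell by 0.50 (SE 0.10). Rrs1, which helps to bring Rpl5 and Rpl11 into the large subunit, rose by 0.53 (SE 0.10). Of 9 RNA polymerase I genes 1 rose and 1 fell, which is close to the shares over all genes. Polr1e rose by 0.39 (SE 0.10) and Polr1a, the largest subunit, fell by 0.27 (SE 0.07).

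In the mTOR pathway, 3 of 12 genes rose and 2 fell, where 11.3% of all genes rose and 9.35% fell, with no test of the difference. Rptor, the scaffold that brings substrates to mTOR, fell by 0.48 (SE 0.07). The kinases of Rps6 went opposite ways, Rps6kb1 falling by 0.36 (SE 0.07) and Rps6kb2 rising by 0.61 (SE 0.11), and Tsc2, a brake on the pathway, rose by 0.29 (SE 0.06). In the list of p53 control by free ribosomal proteins, 1 of 5 rose and 1 fell. Mdm2 changed by 0.17 (SE 0.10, adjusted p = 0.296), Cdkn1a, a p53 target that arrests the cell cycle, rose 2.34-fold (1.22, SE 0.09), and Usp7, which removes ubiquitin from Mdm2 and p53, fell by 0.39 (SE 0.08).

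**Figure D5:**
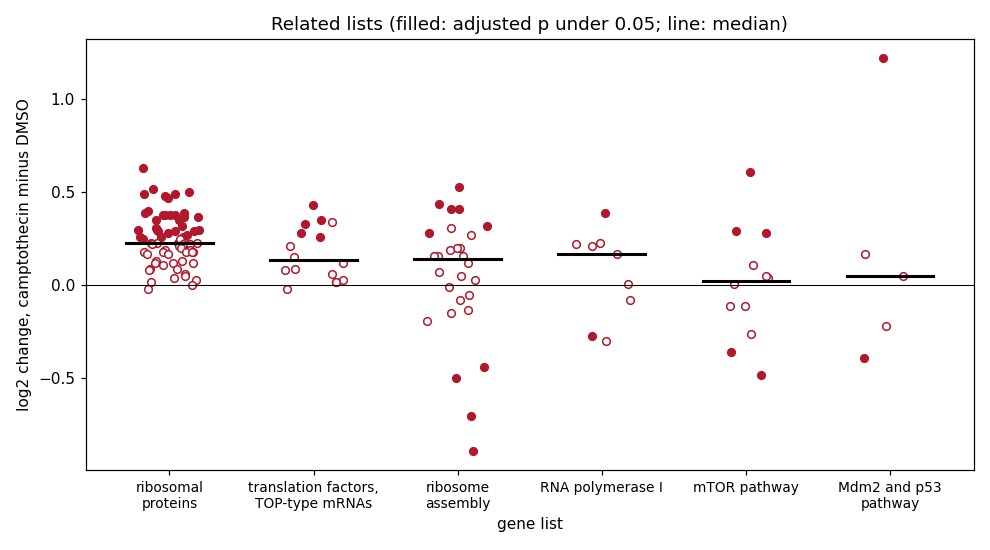
Points are the log2 changes of single genes (vertical axis) in the ribosomal protein group and in 5 related lists, filled where the adjusted p was under 0.05, and lines are medians. The ribosomal proteins lie between -0.02 and 0.63, while the assembly list runs from -0.89 to 0.53.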

How the data were processed

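Biotinylated cDNA from total RNA was hybridised to Affymetrix Rat Gene 1.0 ST arrays, per the labels' protocols. The deposited values are log2 expression values per transcript cluster and array, made with RMA in the oligo package, according to the submitters' processing notes. No version, probe annotation or genome build is given in the sources used here. Values were tested as deposited, without a filter, with limma (3.58.1, R 4.3.3), lmFit and eBayes, two-sided, over 29214 clusters. In the platform annotation 15310 clusters had 1 symbol, 323 had several and 13581 had none. Gene IDs of 66 of the 68 members matched RefSeq GRCr8. On simulated data for this comparison, 200 of 29214 clusters were shifted by 2, 1 or 0.5 on the log2 scale. The test recovered 95.5%, 85.5% and 16.5% of them, and false calls made up 5.45%, 4.47% and 0% of all calls. Many more clusters passed in the real data (2937 higher and 2311 lower). The adjusted threshold was therefore stricter in the simulation, and its shares do not give the share of real changes found here. The members, the gene lists and the alternatives were chosen with earlier results of these data known. Every member could be named, and full values are given for the 8 largest and 4 smallest changes, the stalk, Rpl5 and Rpl11. Up to 4 called genes per related list are named with their change and SE, without array values.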

Additional observations from a re-analysis of the deposited data

How the results depend on the processing

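No member fell in any of the 16 alternatives. The count of 34 members higher became 16 with arrays centred on their medians, 56 with trend and robust eBayes, 4 at a threshold of 0.01, and 7 to 25 with 1 array left out, and the members' median change of 0.23 became 0.17 with median centring and 0.18 with arrays centred on bright clusters outside the ribosomal protein genes (23 members higher). Without dim clusters 51 were higher and with 1-symbol clusters only 41. Fewer clusters are tested in both fits. The share of all tested clusters that were higher also grew, to 26.7% and 16.3% from 10.1% in the main fit. Rplp1, Rpl36, Rpl15 and Rps21 passed in every alternative, 9 called members were lost in 1 to 4 of them and 21 in 5 or more. Of all clusters, 2937 were higher and 2311 lower. After median centring the balance turned, with 1627 higher and 2743 lower. The higher ones were 749 at the threshold of 0.01, and between 1187 and 2327 when an array was left out, and lower clusters 1379 at 0.01 and 1581 to 2078 with 1 array left out. Of the related-list genes 18 were higher and 8 lower. Median centring gave 7 higher and 10 lower, and the threshold of 0.01 gave 3 higher and 3 lower, while fits with 1 array omitted gave 7 to 12 higher and 3 to 8 lower.

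When the replicate number was fitted as a block, 15 members, 1677 clusters overall and 7 related-list genes were higher. Arrays with the same number had correlated deviations of -0.08, 0.02 and 0.08 (Pearson's r over all clusters), so the numbers were not taken to pair them, and not every array correlated best with its own number. The cause of these changes was not tested. The number of arrays limits the precision.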
